A study of Mus musculus with 8 samples.

Results

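The genes described here encode the receptor chains for GM-CSF, IL-3 and G-CSF: Csf2rb, Csf2rb2, Csf2ra, Csf3r and Il3ra. They were taken by symbol, 5 of the 18187 gene symbols in a count table from mouse neutrophils, and all 5 passed the filter on low counts. They were picked for study after their values in the comparison below had been seen, so their differences between the groups are given as a description and are not tested as a result. The study is titled as one of neutrophil activation by T cell immunotherapy. Its 8 libraries carry the cell type label neutrophils and come from mice bearing tumors of B16, a melanoma line. There were 3 libraries labelled aOX40 (replicates 1 to 3), for treatment directed at the T cell costimulatory receptor OX40, and 5 labelled IgG, the comparison treatment (replicates 2 to 6). Both groups share the tumor line and the cell type label. The sources used here do not give mouse strain, age, dose, day of harvest or how neutrophils were isolated. The labels do not say whether each library is a separate animal, so the errors below measure the spread between these libraries.

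GM-CSF and IL-3 act through receptors built from a cytokine-specific alpha chain and a shared beta chain that carries the signal. Csf2ra encodes the alpha chain for GM-CSF and Il3ra the alpha chain for IL-3. Csf2rb encodes the common beta chain, which also serves IL-5, and Csf2rb2 encodes a beta chain that mice have in addition and that serves IL-3. Csf3r encodes the G-CSF receptor, which pairs with itself and needs no beta chain. The bound receptors signal through the kinase JAK2 and through STAT5 and STAT3, and in neutrophils they prolong survival, prime the cells for activation and drive their production from progenitors.

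The libraries held 52.7 to 73.5 M counts (M, mega), with 71.1 ± 2.06 M (SD, n = 3) in aOX40 and 58.9 ± 5.02 M (SD, n = 5) in IgG. Depth and group went together (exact two-sided permutation p = 0.0357). This p doubles the smaller tail, and it is the smallest possible that way with 3 against 5 libraries. By absolute difference the exact permutation p was 0.0179. The 20 neutrophil markers, which leave out the receptor genes, had a sum of 48743 ± 4945 CPM across the aOX40 libraries, against 50984 ± 8665 CPM for IgG (p = 0.786 by the same exact permutation test). CPM are counts per mega-count (M) after scaling between libraries with TMM factors. Il1b made up 27.6% of the neutrophil sum, which hides single markers. Cd177, Mmp8 and Mmp9 were higher in aOX40, by 1.34, 1.19 and 1.28 on the log2 scale. Their adjusted p over all genes was 0.0414, 0.0443 and 0.0467 (edgeR), and no other marker of the list fell below 0.05. G0s2 was lower without overlap between the groups (-0.87, adjusted p = 0.0953, edgeR).

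Csf2rb and Csf2rb2 are close copies, and their likeness limits what counts can say of each. On GRCm38 (mm10), GENCODE places Csf2rb at chr15:78325752-78353847 on the plus strand and Csf2rb2 at chr15:78282507-78305721 on the minus strand, with 20.0 kb between them. Their longest coding sequences, of 2688 and 2634 bases, were identical at 95.2% of 2628 aligned bases. Of stretches of 50 bases along the Csf2rb transcript, 18.4% occurred unchanged in Csf2rb2, and 7.0% of stretches of 100 bases did. The 120 aligned coding bases with the most mismatches are shown because reads from there can be assigned to a gene. Capitals mark the 22 mismatched bases, from coding base 309 of Csf2rb and 312 of Csf2rb2.
Csf2rb: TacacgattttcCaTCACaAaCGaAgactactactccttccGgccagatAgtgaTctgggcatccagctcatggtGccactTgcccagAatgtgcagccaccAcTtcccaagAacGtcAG
Csf2rb2: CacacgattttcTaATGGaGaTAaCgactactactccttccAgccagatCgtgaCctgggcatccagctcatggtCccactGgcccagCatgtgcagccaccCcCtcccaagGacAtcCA
The next 120 coding bases, from base 2083 in each gene, have 0 mismatches and are shown because reads that lie within them fit both genes.
Csf2rb and Csf2rb2: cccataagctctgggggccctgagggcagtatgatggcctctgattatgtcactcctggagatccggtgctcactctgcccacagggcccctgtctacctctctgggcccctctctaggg
The deposited counts of Csf2rb carried fractions in 8 of 8 libraries and those of Csf2rb2 in 7 of 8, as did Csf2ra (8) and Csf3r (7), whereas Il3ra counts were whole in each library (within 0.01). The sources used here do not say how fractions arose, so the division of reads between Csf2rb and Csf2rb2 is uncertain, and their sum is given beside them. The G-CSF receptor gene also has a partial match in an unnamed model, AC105061.2, at 96.0% identity over 61.4% of its transcript. Csf2ra and Il3ra transcripts had no match in another gene.

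The common beta chain gene had the largest difference of the 5. Csf2rb stood at 419, 284 and 393 CPM in aOX40 replicates 1, 2 and 3. In IgG replicates 2 to 6 it stood at 935, 1185, 1306, 1542 and 1502 CPM. The groups did not overlap, and the highest aOX40 library was below the lowest IgG library by more than either group's SD. The means were 366 ± 71.6 CPM (SD, n = 3) and 1294 ± 248 CPM (SD, n = 5). The log2 fold change (aOX40 minus IgG, edgeR) was -1.82 (SE 0.23), or 3.54-fold lower in aOX40, and 5.26% of all tested genes had a lower value. In both groups Csf2rb was abundant: its mean over the 8 libraries was above that of 98.8% of tested genes.

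Csf2rb2, the additional beta chain, was lower in aOX40 by a like amount from a lower level. It stood at 105, 57.2 and 63.5 CPM in aOX40 and at 233, 156, 135, 365 and 287 CPM in IgG. The groups did not overlap, although aOX40 replicate 1 and IgG replicate 4 lay close together. The log2 fold change was -1.65 (SE 0.36), with means of 75.3 ± 26.1 CPM (SD, n = 3) and 235 ± 94.7 CPM (SD, n = 5). Its spread within a group was wider than that of Csf2rb, with a coefficient of variation of 40.2% against 19.1% in IgG. Summed over both beta chain genes the level was 441 ± 92.5 CPM in aOX40 and 1529 ± 310 CPM in IgG. Their counts fitted as a single row gave a log2 fold change of -1.80 (SE 0.24). Most of the summed counts are assigned to Csf2rb, so the sum does not settle the value of Csf2rb2. The share of the summed counts assigned to Csf2rb2 ran from 13.9% to 20.1% in aOX40 and from 9.39% to 20.0% in IgG. These ranges overlap.

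Csf2ra, the GM-CSF alpha chain, had a smaller difference in the same direction. It stood at 432, 387 and 554 CPM in aOX40, and at 798, 860, 1076, 575 and 1040 CPM in IgG. The groups did not overlap, but IgG replicate 5 was only slightly above aOX40 replicate 3. The log2 fold change was -0.93 (SE 0.24), or 1.90-fold lower, with means of 458 ± 86.5 CPM (SD, n = 3) and 870 ± 202 CPM (SD, n = 5). Csf2ra lies at chr19:61223957-61228429 on the minus strand and overlaps no other annotated gene.

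The G-CSF receptor gene Csf3r, at chr4:126024550-126044440 on the plus strand, did not separate the groups. It stood at 517, 644 and 909 CPM in aOX40 and at 801, 761, 1237, 736 and 865 CPM in IgG. The aOX40 library of replicate 3 was above 4 of the 5 IgG libraries, and IgG replicate 4 stood apart from the rest of its group. The log2 fold change was -0.35 (SE 0.24), with means of 690 ± 200 CPM (SD, n = 3) and 880 ± 205 CPM (SD, n = 5).

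Il3ra, the IL-3 alpha chain, was measured at a far lower level, with 28 to 166 counts in a library. It stood at 2.23, 0.314 and 0.811 CPM in aOX40 and at 1.79, 2.64, 0.521, 0.506 and 2.39 CPM in IgG. The groups overlapped throughout, and the within-group spread (SD 1.22 on the log2 scale) exceeded the difference between them (-0.52, SE 0.75). No difference was detectable at this spread. Il3ra lies at chr14:14346275-14356011 on the plus strand. It overlaps the antisense gene Gm48860, and reads of these genes may not be told apart, since no strand setting is stated.

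**Figure D1:**
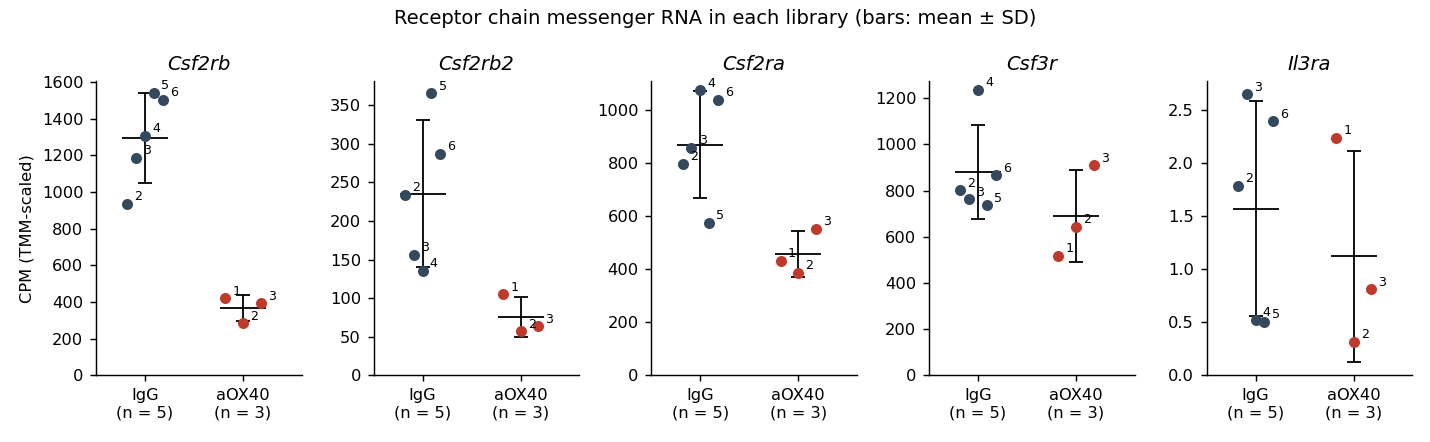
Level of each receptor chain gene in CPM (vertical axes, linear and starting at 0, each panel with its own range) in the 5 IgG and 3 aOX40 libraries; points are libraries with their replicate number, bars the mean ± SD. The aOX40 points of Csf2rb, Csf2rb2 and Csf2ra all lie below the IgG points, while those of Csf3r and Il3ra overlap them.

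In the fit over all genes (edgeR quasi-likelihood, Benjamini-Hochberg adjusted p below 0.05), 3 of the 5 genes were called, all lower in aOX40: Csf2rb, Csf2rb2 and Csf2ra. Of 13278 genes tested, 750 were called (5.65%), with 399 lower (3.00%) and 351 higher. The count of 3 depends on the edgeR setting, which was settled after the calls of 4 settings were known, and the reported setting gave the most. The same setting with robust estimation called 2 of the 5, Csf2rb and Csf2rb2, among 700 genes. The older setting, which is the default of this edgeR version, called only Csf2rb, among 320 genes, and only Csf2rb with robust estimation, among 325. The same 3 genes were those without overlap between the groups, where 7.75% of tested genes were lower without overlap. The genes were chosen from this contrast, so these counts describe them and support nothing further. Over 20 alternative analyses the log2 fold change of Csf2rb lay between -1.93 and -1.54 and was called in 18. That of Csf2rb2 lay between -1.96 and -1.37 in 19 and was called in 13, and that of Csf2ra lay between -1.08 and -0.62 and was called in 6 of 20. Csf2rb lost its call without aOX40 replicate 2 and with the replicate number as a block. Csf2rb2 lost it in these analyses, without aOX40 replicate 3 or IgG replicate 6, and with the older edgeR setting, robust or not. With 1 library left out Csf2ra kept its call in 1 of 8 analyses, that without IgG replicate 5. Scaling by total counts alone moved the median of all genes by 0.30, from 0.05 to 0.35, and gave -1.54 for Csf2rb, -1.37 for Csf2rb2, -0.62 for Csf2ra and -0.04 for Csf3r.

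**Figure D2:**
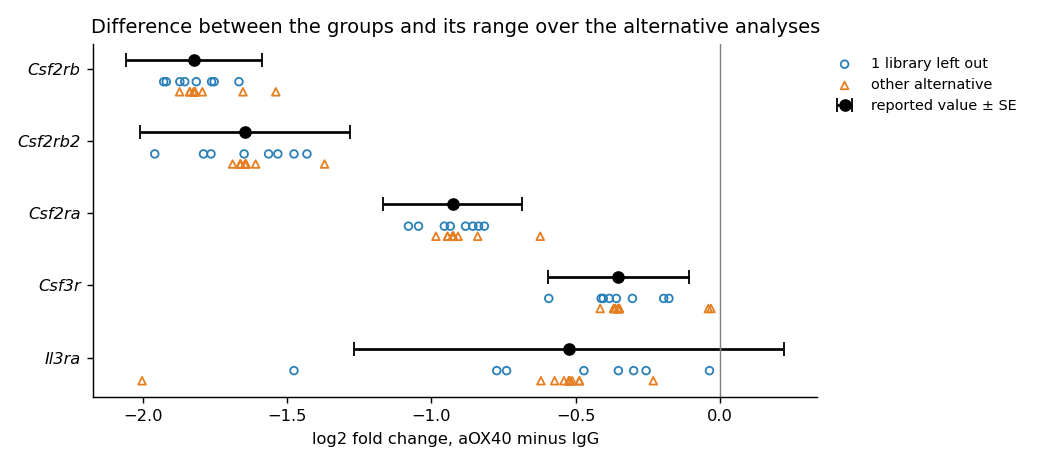
Log2 fold change (aOX40 minus IgG, horizontal axis) of the 5 receptor chain genes; black points are the reported values ± SE, circles the 8 analyses with 1 library left out, triangles the other alternatives. Csf2rb and Csf2rb2 lie at -1.37 or below throughout, Csf2ra lies nearer to 0, and the Il3ra values spread from -2.004 to -0.04.

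Levels of different genes were compared per length, as CPM per kilobase of annotated exons (union of all exons). In IgG the order was Csf2ra at 303 ± 70.4, Csf3r at 244 ± 56.9, Csf2rb at 178 ± 34.0, Csf2rb2 at 49.7 ± 20.0 and Il3ra at 0.529 ± 0.341 CPM per kb (SD, n = 5). Csf2ra and Csf3r lay within their spread of each other, as did Csf3r and Csf2rb by the sum of their SDs. In aOX40 the order was Csf3r at 191 ± 55.4, Csf2ra at 159 ± 30.1, Csf2rb at 50.2 ± 9.85, Csf2rb2 at 15.9 ± 5.50 and Il3ra at 0.377 ± 0.336 CPM per kb (SD, n = 3). There Csf3r and Csf2ra again did not differ beyond their spread, and Csf2rb lay below both by more than the sum of the SDs. The IL-3 alpha chain was thus the scarcest chain in both groups. With the longest transcript as the length, Csf2rb in IgG was 264 ± 50.5 CPM per kb and Csf3r 253 ± 58.9, so the order of these neighbours depended on the length used.

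Ratios within a library do not depend on the scaling between libraries. The ratio of the GM-CSF alpha chain to the common beta chain, Csf2ra per Csf2rb per length, was 2.61, 3.45 and 3.57 in aOX40. In IgG it was 2.17, 1.84, 2.09, 0.946 and 1.76. The groups did not overlap, with means of 3.21 ± 0.52 (SD, n = 3) and 1.76 ± 0.48 (SD, n = 5), which restates that Csf2rb differed more than Csf2ra. With both beta chain genes in the denominator the means were 2.46 ± 0.51 and 1.39 ± 0.42. The ratio of Csf3r to Csf2ra ran from 0.952 to 1.32 in aOX40 and from 0.662 to 1.02 in IgG, and these ranges overlap. IgG replicate 5 stands out within its group: it had the highest Csf2rb and Csf2rb2 of all libraries, and the lowest Csf2ra and Csf3r of the IgG libraries.

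**Figure D3:**
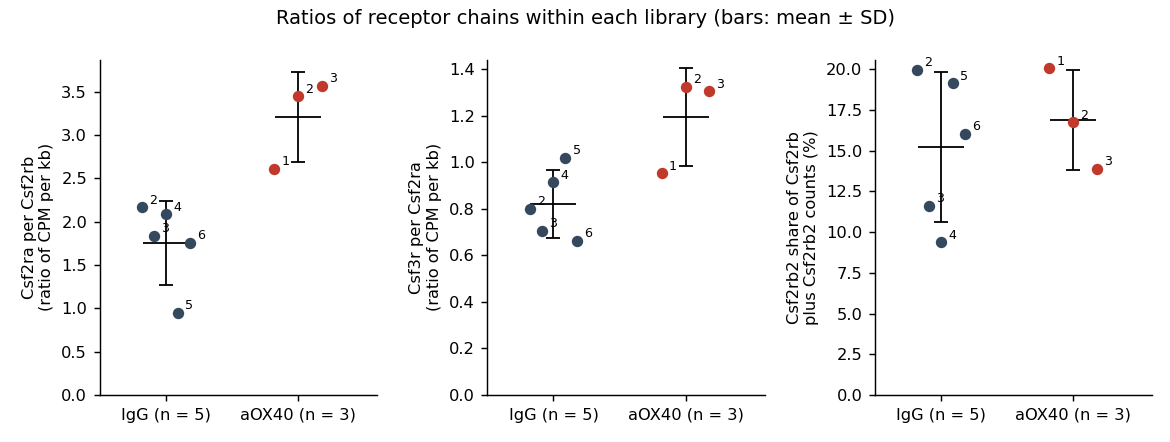
Ratio of Csf2ra to Csf2rb and of Csf3r to Csf2ra (each as CPM per kb of exons), and the share of the summed Csf2rb and Csf2rb2 counts assigned to Csf2rb2, in each library (points with replicate numbers; bars mean ± SD; axes start at 0). The Csf2ra to Csf2rb ratio separates the groups, at 2.61 or above in aOX40 and 2.17 or below in IgG, and the other panels overlap.

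Genes around the beta chain pair did not share its direction throughout. Of genes in the table within 150 kb, Ncf4, a subunit of the phagocyte oxidase that lies next to Csf2rb2, had 385 ± 22.8 CPM in aOX40 against 243 ± 36.9 CPM in IgG. Its log2 fold change was 0.67 (SE 0.18, adjusted p = 0.0559, edgeR) and did not pass the threshold, although its groups did not overlap. Groups did not overlap, in either direction, for 2120 of the 13278 tested genes. Tst, which encodes the sulfur transferase rhodanese, was at 11.2 ± 1.83 and 20.1 ± 9.60 CPM (-0.85, SE 0.38, adjusted p = 0.199, edgeR). Ift27, Tex33, Mpst and Kctd17 had means under 2 CPM in both groups and did not pass. Tmprss6 was at 0 in 7 of 8 libraries.

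**Figure D4:**
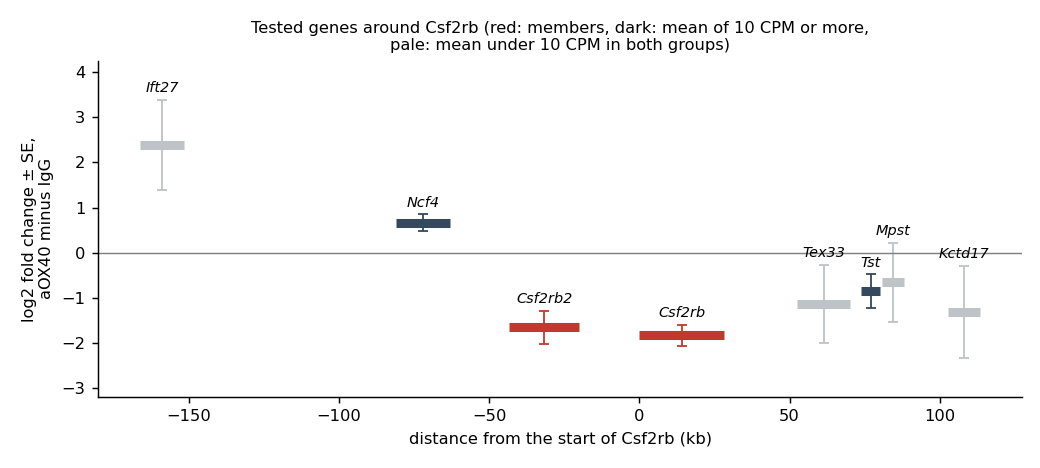
Log2 fold change ± SE (aOX40 minus IgG, vertical axis) of tested genes within 150 kb of the Csf2rb and Csf2rb2 pair, drawn over their extent as distance from the start of Csf2rb in kb. Csf2rb2 and Csf2rb (red) lie at -1.65 and -1.82, while their abundant neighbour Ncf4 lies at 0.67.

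Promoters were looked up for the genes that differed together. The RefSeq table (GRCm38.p6) held Csf2rb2, Csf2ra, Csf3r and Il3ra, 4 of the 5 genes. The 200 bases upstream of the RefSeq start are shown for Csf2rb2 and Csf2ra, the genes without overlap that the table holds. Capitals mark matches on either strand to GAGGAA, a core of sites for PU.1, to TTNNGNAA, a C/EBP-like motif, and to TTCNNNGAA, the palindrome that STAT factors bind.
Csf2rb2, chr15:78305722-78305921, minus strand: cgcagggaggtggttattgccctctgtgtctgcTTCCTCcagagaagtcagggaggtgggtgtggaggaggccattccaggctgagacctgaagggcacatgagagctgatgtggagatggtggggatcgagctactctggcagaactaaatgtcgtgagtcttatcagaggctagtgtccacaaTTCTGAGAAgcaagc
Csf2ra, chr19:61228419-61228618, minus strand: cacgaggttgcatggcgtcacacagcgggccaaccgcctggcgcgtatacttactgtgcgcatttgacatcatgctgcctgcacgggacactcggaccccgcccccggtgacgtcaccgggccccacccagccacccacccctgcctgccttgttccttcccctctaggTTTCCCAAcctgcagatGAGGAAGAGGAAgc
Csf2rb2 held 1 match to GAGGAA and 1 to TTCNNNGAA, and Csf2ra held 2 to GAGGAA and 1 to TTNNGNAA. Csf3r held 1 to GAGGAA and Il3ra 1 to TTNNGNAA, and TGTGGT, a RUNX motif, had 0 matches in all 4. Among 27025 promoters of the same length, 18.9% held GAGGAA, 30.1% TTNNGNAA, 5.6% TTCNNNGAA and 11.3% TGTGGT. These are matches of letters, not measured binding. The RefSeq starts differ from the GENCODE gene positions given above for Csf2ra, Csf3r and Il3ra. The windows of Csf2ra and Csf3r (chr4:126024459-126024658) reach into the GENCODE gene, and that of Il3ra (chr14:14346295-14346494) lies within it. Matches there may thus fall in transcribed sequence.

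The 3 ligand genes tested had fitted log2 fold changes above 0, from 0.71 to 2.81. Csf3, which encodes G-CSF, stood at 128, 153 and 209 CPM in aOX40 and at 0, 78.0, 5.36, 7.16 and 26.1 CPM in IgG. The groups did not overlap, with a log2 fold change of 2.81 (SE 0.85) that did not pass the threshold (adjusted p = 0.0733, edgeR). Without IgG replicate 3, the highest IgG library, Csf3 was called at 4.06 (adjusted p = 0.0246, edgeR), the only 1 of 20 alternative analyses that called it, and limma voom gave 5.24 without a call. Csf1, which encodes M-CSF, the ligand of the related receptor Csf1r, was at 506 ± 77.0 and 308 ± 100 CPM (0.71, SE 0.27, adjusted p = 0.130, edgeR). Csf2, which encodes GM-CSF, was at 0 in 5 of 8 libraries and reached 31 counts in the highest; a count of 0 allows up to 0.0615 CPM, counting error only. Il3, Il5 and Il34 were not analysed here. Of the 3 ligand genes tested, 0 were called (edgeR).

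The other genes of the pathway were read from 6 lists, ligands included, with 105 genes tested; 4 were higher, 7 lower and 94 were not called. The share called was 10.5%, against 5.65% of all tested genes, and the median log2 fold change was 0.14 against 0.05. With 1 of 17 other cytokine receptors and 2 of 35 kinases, STATs and adaptors called, those lists lay near the share of all genes. Most calls were on the list of STAT response genes, with 5 lower and 1 higher of 19. These lists were drawn up with earlier results of these data known, so the share is given as a description.

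Among 17 other cytokine receptor genes tested, 1 fell and 0 rose, with a median log2 fold change of -0.21. The gene that fell was Il15ra, the alpha chain for IL-15, with 32.5 ± 12.5 CPM in aOX40 against 93.2 ± 23.9 CPM in IgG (-1.52, SE 0.31, adjusted p = 0.0248, edgeR). Csf1r, the M-CSF receptor and a marker of macrophages, was at 51.2 ± 21.2 and 17.5 ± 8.26 CPM without overlap (1.54, SE 0.42, adjusted p = 0.0546, edgeR). Il4ra, at 178 ± 69.0 and 218 ± 70.3 CPM, and Il6ra, at 30.3 ± 12.7 and 18.02 ± 2.51 CPM, overlapped between the groups. Il5ra, the alpha chain that pairs with Csf2rb for IL-5, was at 0 in 6 of 8 libraries and did not pass the filter.

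Of 35 kinases, STATs and adaptors, 2 rose and 0 fell, with a median of 0.22. Shc1, an adaptor that links the beta chain to RAS, rose to 33.4 ± 4.57 CPM in aOX40 from 9.47 ± 3.04 CPM in IgG (1.81, SE 0.28, adjusted p = 0.0110, edgeR). The receptor-associated kinase gene Jak2 was at 76.7 ± 15.5 and 96.7 ± 15.9 CPM (-0.33, SE 0.22, adjusted p = 0.375, edgeR). The transcription factor genes Stat5a (log2 fold change 0.30, SE 0.53), Stat5b (-0.05, SE 0.34) and Stat3 (-0.60, SE 0.30) were not called, and their groups overlapped.

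Inhibitors and STAT response genes held most of the lower genes. Of 22 inhibitors tested, 1 rose and 2 fell, with a median of -0.23. Of 19 STAT response genes tested, 1 rose and 5 fell, with a median of 0.16; Cish, Socs1, Socs2 and Socs3 are on both lists. Cish, a feedback inhibitor known as a STAT5 target, was at 76.8, 52.8 and 69.1 CPM in aOX40 and at 214, 126, 158, 162 and 184 CPM in IgG (-1.35, SE 0.23, adjusted p = 0.0150, edgeR). Each aOX40 library lay below each IgG library. Pim1, a kinase gene also known as a STAT5 target, fell from 416 ± 55.6 to 190 ± 57.4 CPM (-1.13, SE 0.24). Socs1 fell by 2.04 on the log2 scale, Cdkn1a, which encodes the cell cycle inhibitor p21, by 1.31, and Bcl2l1, which encodes the survival protein BCL-XL, by 0.93. Pim2, a relative of Pim1, rose between low levels, from 2.08 ± 1.24 to 10.3 ± 5.72 CPM (2.33, SE 0.55). Ptpn6, which encodes the phosphatase SHP-1 that acts on cytokine receptors, rose from 154 ± 51.0 to 422 ± 77.8 CPM (1.46, SE 0.28). Socs3, the inhibitor that binds the G-CSF receptor, was at 936 ± 527 and 1703 ± 753 CPM (-0.86, SE 0.42, adjusted p = 0.231, edgeR). Mcl1, another survival gene, was at 3118 ± 483 and 4074 ± 344 CPM (-0.39, SE 0.18, adjusted p = 0.208, edgeR), and Socs2 was near 0.7 CPM in both groups.

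Of 13 transcription factor genes tested, chosen as regulators of myeloid receptor genes, 0 rose and 1 fell, with a median of 0.19. Runx1 fell from 216 ± 48.2 CPM in IgG to 96.1 ± 23.1 CPM in aOX40 (-1.17, SE 0.25, adjusted p = 0.0257, edgeR). Spi1, which encodes PU.1, was at 783 ± 78.9 and 659 ± 117 CPM, and Cebpb at 12259 ± 3158 and 17228 ± 3894 CPM, and neither was called. Cebpa was near 1 CPM in both groups. Fewer genes of these lists were called with an aOX40 library left out: without aOX40 replicate 2, 0 higher and 0 lower genes were called, as were 0 of all genes tested, and without aOX40 replicate 3, 0 and 2. The fold changes without aOX40 replicate 2 kept their direction, from -1.91 for Socs1 to -0.87 for Bcl2l1 among the 7 lower genes, and 1.71 for Shc1, 1.32 for Ptpn6 and 2.68 for Pim2. Without aOX40 replicate 1 it was 3 and 3, and without IgG replicate 5 or IgG replicate 6 the higher genes were 2. Bcl2l1 and Pim2 were called in 9 of 20 alternative analyses each, and 8 other called genes in 16 to 18.

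**Figure D5:**
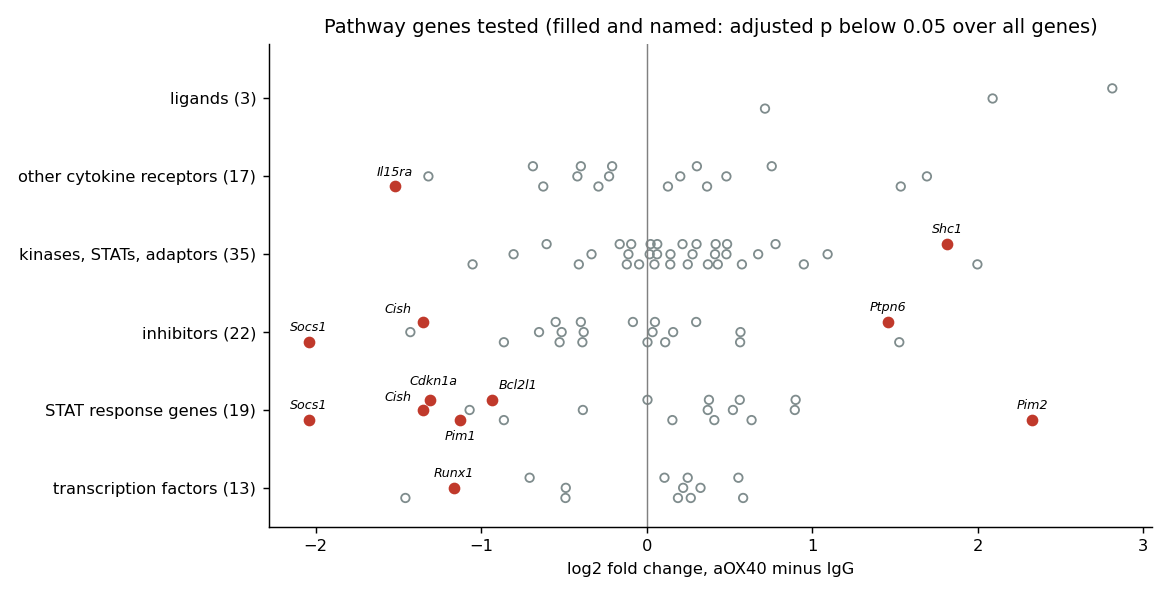
Log2 fold change (aOX40 minus IgG, horizontal axis) of the tested genes of each list, with the number tested in parentheses; filled and named points had an adjusted p below 0.05 over all genes, 1 tested gene of the kinase list is not drawn, and vertical position within a list only separates points. Socs1 at -2.04 and Pim2 at 2.33 are the extremes among called genes, and Cish and Socs1 appear on both lists that hold them.

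The genes whose pattern was most like that of a receptor gene were found by the root mean square difference of centred log2 CPM over the 8 libraries, among 4560 genes with a mean of at least 10 CPM. All values share the libraries and their scaling. For Csf2rb these were Tnrc6b (0.14), Parp14 (0.22) and Tmem33 (0.26), where the median gene differed by 1.00. For Csf2rb2 they were Igf1r (0.19), Lyrm4 (0.30) and Suz12 (0.32). For Csf2ra they were Ppt1, Ifih1 and Notch2, at 0.14 to 0.15, and for Csf3r they were Irf7, Actg-ps1 and Snapc1, at 0.13 to 0.16. For Il3ra the nearest, Dusp14, differed by 0.65, so that gene had no close match. The 2 beta chain copies differed from each other by 0.43, and Csf2rb2 ranked 74 among the genes compared with Csf2rb. Csf2ra and Csf3r differed by 0.348, a smaller value than that between Csf2ra and Csf2rb (0.57). Csf3r departed from its own mean by 0.345, so a gene that did not vary would lie as near to it. Csf2ra departed from its own mean by 0.526, so Csf3r lay nearer to it than a gene that did not vary would. From this side Csf2ra and Csf3r shared part of their pattern, which was not tested.

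Some markers of other cells moved with the groups. These are bulk libraries, so fewer cells of a type and less RNA per cell cannot be told apart. Of the 10 dendritic cell markers, 7 were in the table, and these cells also use GM-CSF receptors. Their sums were 24.0 to 35.3 CPM in aOX40, against 37.1 to 60.5 CPM for IgG (p = 0.0357 by an exact permutation test, 0.196 adjusted over the 11 lists). Itgax made up 58.3% of that sum, and the defining markers Zbtb46, Xcr1, Clec9a and Flt3 together reached at most 1.53 CPM in aOX40 and 6.11 CPM in IgG. The 11 macrophage and monocyte markers in the table ranged in sum from 551 to 794 CPM in aOX40, against 381 to 730 CPM in IgG (p = 0.179, exact permutation test), of which Ly6c2, a monocyte marker, made up 84.5%. Adgre1, a macrophage marker named after its values were seen, was the only gene of that list called: it rose from 6.12 ± 2.62 CPM in IgG to 21.6 ± 6.37 CPM in aOX40 without overlap (1.81, SE 0.37, adjusted p = 0.0248, edgeR). It was called in 15 of 20 alternative analyses, and neither without aOX40 replicate 2 (adjusted p = 0.132, edgeR) nor without aOX40 replicate 3. Csf1r, given above, is on the same list, whereas Mertk was at 0 in each IgG library and C1qa, C1qb and C1qc had means below 1 CPM in both groups. Fibroblast and endothelial markers, 4 of 9 in the table, summed to 4.45 to 8.45 and 8.92 to 59.9 CPM (exact permutation p = 0.0357, 0.196 adjusted). Counting the splits whose absolute difference was at least as large, in place of doubling the smaller tail, gave an exact permutation p of 0.0714. Of the fibroblast and endothelial genes, Col1a1 was called lower in aOX40, without overlap (-3.09, SE 0.75, adjusted p = 0.0414, edgeR). Pecam1 was not called, and Col3a1 and Dcn were not tested. The 6 eosinophil markers in the table summed to 26.5 to 31.4 and 13.97 to 42.6 CPM (exact permutation p = 1). Of 9 basophil and mast cell markers, 2 were in the table, and their sum was nearly all Hdc, which is on the neutrophil list too. Melanoma markers summed to at most 15.4 CPM, T cell markers to at most 2.56 CPM, and B and NK cell markers to less than 1 CPM. The 13 mitochondrial messenger RNAs were listed as an indirect guide to RNA quality, which was not measured directly here. Their sums were 915 to 1200 CPM in aOX40, against 571 to 929 CPM for IgG. The exact permutation p was 0.0714 by doubling the smaller tail (0.262 adjusted over the 11 lists) and 0.0357 by absolute difference (0.196 adjusted). Of the mitochondrial genes, mt-Nd4 (0.79, adjusted p = 0.0467, edgeR) and mt-Cytb (0.95, adjusted p = 0.0472, edgeR) were called higher in aOX40, without overlap. The others were not called. The part of these markers, of RNA quality and of depth in the receptor values was not tested.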

How the data were processed

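Bulk RNA sequencing of 8 neutrophil libraries was analysed, 3 labelled aOX40 and 5 labelled IgG, with groups and replicate numbers from the sample titles. The authors deposited estimated counts per gene symbol, not scaled between libraries, and 63.4% of values were whole within 0.01. Per the submitters' processing notes, STAR 2.6.0, Subread and featureCounts 1.5.1 were used with mm10; annotation, strand setting and the source of fractions are not stated there.

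Counts were rounded, filtered with filterByExpr, scaled with TMM factors and tested by quasi-likelihood in edgeR 4.0.16 (R 4.3.3), group as the only term, with Benjamini-Hochberg adjustment over 13278 genes and a threshold of 0.05. SEs came from the F statistic. The edgeR setting was not part of the design written beforehand. The package default (legacy = TRUE) was run first, then it and legacy = FALSE were run with and without robust estimation. The non-robust legacy = FALSE fit was then selected, with the calls of all 4 known, because its gene counts matched an earlier account of this series; the others are reported as alternatives.

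Single values were compared by exact two-sided permutation over 56 splits. The p was first the share of splits with an absolute difference at least as large; after those values were seen it was changed to the doubled smaller tail (smallest p 0.0357), and both are given where they fall on different sides of the threshold. Other alternatives were other scalings, filters, DESeq2 1.42.0, limma 3.58.1 voom, the replicate block, summed copies and each library left out. Members and lists were chosen with earlier results of these data known.

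Named genes were the 5 receptor genes, the ligands, up to 4 called genes per list and direction, 19 fixed pathway genes, genes within 150 kb of the beta chain pair, and the 3 nearest patterns per receptor gene (log2 CPM with a prior count of 2). Single genes of the marker lists were named after their values were seen. Positions came from GENCODE M21, where 17669 symbols were placed, transcript matches from BLAST+, and promoters from RefSeq. A further called gene of the kinase list is counted but not reported here. The procedure was tested on simulated counts for 13278 genes. It called 24% of 50 genes changed 2-fold and 90% of 50 genes changed 4-fold in the right direction. A gene that was not called may thus still differ by 2-fold. Recovery of changed genes below that level, such as Il3ra, was not simulated.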

Additional observations from a re-analysis of the deposited data

Results flagged for a closer look

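Of 73 values checked in the 5 IgG libraries, 8 had a highest or lowest library far from the others. A nominal rate of about 1 in 20 does not hold for this set. A gene at 0 in all IgG libraries but 1, such as Il5ra, Csf2 or Tmprss6, is always flagged. Among the receptor genes this was Csf3r, highest at 1237 CPM in IgG replicate 4, which was also the library with the highest Actg-ps1 (38.3 CPM), a gene named for its like pattern. Cdkn1a was lowest at 2736 CPM in IgG replicate 3, still above each aOX40 library, and Il6ra was lowest at 13.6 CPM in IgG replicate 6. The rest were near 0: Il5ra reached 2.34 CPM in IgG replicate 2, and IgG replicate 6 held Csf2 at 0.230 CPM, Tmprss6 at 1.72 CPM and B cell markers at 0.425 CPM.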

How the results depend on the processing

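Of 333 checks of the main values, 262 were labelled the same and 0 reversed. Counts were judged by a fixed ratio to the reported count, other values by their spread or by their side of the threshold. A change of sign was labelled reversed only where a value passed the threshold. Differences in marker sums that did not pass could change sign. That of neutrophil markers was -2241 CPM and ran from -4786 to 1064 CPM with 1 library left out. Genes called numbered 452 without the filter (194 higher, 258 lower), 1433 with DESeq2 (932 lower) and 320 with the older edgeR setting (109 higher, 211 lower; 325 with robust estimation, 107 higher and 218 lower), against 750. Total counts alone gave 874 higher and 246 lower (78.0% higher against 46.8%), the DESeq2 calls were 35.0% higher and the older setting's 34.1%. With 1 library left out, 0 to 589 genes were called (0 to 263 higher, 0 to 326 lower); it was 0 without aOX40 replicate 2 (2230 at an unadjusted p below 0.05), 59 without aOX40 replicate 3, 497 without IgG replicate 3 and 475 without IgG replicate 6. Called receptor genes then ranged from 0 to 3, and pathway genes from 0 to 4 higher and 0 to 7 lower. The older edgeR setting, robust or not, called 1 receptor gene, Csf2rb, and 2 higher pathway genes. Pathway genes called higher numbered 13 with total counts alone, 7 with the stricter filter and 8 with DESeq2, which called 12 lower. With the replicate block in edgeR, 0 genes passed (2594 had an unadjusted p below 0.05), 0 receptor genes and 0 pathway genes in either direction, and Il3ra was at -2.004; only numbers 2 and 3 occur in both groups. Deviations of same-numbered libraries correlated at 0.022 and 0.047, so the numbers were not taken as pairs. With total counts alone the difference in marker sums was -10.5 CPM for dendritic cells (exact permutation p = 0.250), -18.8 CPM for fibroblasts and endothelium (0.107) and 623 CPM for mitochondrial messenger RNAs (0.0357). With 1 library left out the first ran from -21.8 to -14.8 CPM and the second from -27.7 to -15.0 CPM. At these group sizes the smallest p by the doubled tail misses the threshold. By absolute difference the exact permutation p was 0.0714 for fibroblasts and endothelium (-22.6 CPM) and 0.0357 for mitochondrial messenger RNAs (407 CPM). The Csf3r to Csf2ra ratio in aOX40 was 0.982 by longest transcript. The cause of these moves was not tested. Depth limits what can be said of genes near 0 counts, such as Csf2.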
